A study of Homo sapiens with 12 samples.

Results

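HNF4A, HNF4G, FOXA1, FOXA2, FOXA3, CEBPA, ONECUT1 and PROX1 are 8 transcription factors that mark the hepatocyte lineage. They were found by their symbols in the table of counts, where each matched 1 row, so that all 8 of 8 were measured among 16389 genes. The counts came from poly(A) RNA of HepG2, an established human liver cancer line that was grown here from 1 commercial stock, in 4 groups of 3 libraries. LG cells were kept in 5.5 mM glucose and HG cells in 20 mM glucose, the model of hyperglycaemia, for 48 h in both cases. LGV and HGV cells had the same glucose and also 1 mM valproic acid (VPA), an anticonvulsant that inhibits histone deacetylases, for 12 h. Neither the labels nor the methods say whether untreated cells were collected before or after those 12 h, so a difference between VPA-treated and untreated cells may include 12 h of culture. The sources do not say that the 3 libraries of a group were separate cultures, so the p-values measure the spread between these libraries, which may be technical.

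These factors bind one another's genes and those of many liver proteins, and together they hold hepatocytes in their differentiated state. HNF4A and HNF4G are nuclear receptors, and HNF4A is a main regulator of apolipoprotein, clotting factor and bile acid genes. FOXA1, FOXA2 and FOXA3 are forkhead proteins that open chromatin at liver enhancers and take part in the control of gluconeogenesis. CEBPA is a basic leucine zipper factor of metabolic liver genes, ONECUT1 is a cut-homeodomain factor of early liver and bile duct development, and PROX1 is a homeodomain factor of hepatoblast growth that also acts as a corepressor of nuclear receptors.

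On GRCh37, the build of the files, HNF4A lay on the plus strand at chr20:42984339-43061485 and FOXA2 on the minus strand at chr20:22561636-22566093. FOXA3 lay at chr19:46367247-46377055 (plus), CEBPA at chr19:33790840-33793440 (minus), FOXA1 at chr14:38058757-38065264 (minus), ONECUT1 at chr15:53047250-53083275 (minus) and PROX1 at chr1:214156524-214214853 (plus). 4 of the 8 have a noncoding RNA beside them or inside their span that was also counted. They are HNF4A-AS1 inside HNF4A, LINC00261 downstream of FOXA2, CEBPA-AS1 upstream of CEBPA and PROX1-AS1 across the start of PROX1.

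RefSeq promoter windows were used for 5 of the 8 factors, and the 250 bases before each start were searched on both strands for 6 short motifs. The starts come from a RefSeq table on GRCh38.p14, and each window was placed on GRCh37 by a single exact match. The windows below are those of HNF4A and the upstream one of HNF4A-AS1, which can be set side by side, that of LINC00261, the RNA at the FOXA2 locus (no window was given for FOXA2 itself), and that of CEBPA, which had the largest fall of the 8 factors in LGV cells. Capitals mark motif matches on either strand, and each sequence runs 5′ to 3′ on the strand of its gene.
HNF4A upstream start (chr20:42984089-42984338, plus): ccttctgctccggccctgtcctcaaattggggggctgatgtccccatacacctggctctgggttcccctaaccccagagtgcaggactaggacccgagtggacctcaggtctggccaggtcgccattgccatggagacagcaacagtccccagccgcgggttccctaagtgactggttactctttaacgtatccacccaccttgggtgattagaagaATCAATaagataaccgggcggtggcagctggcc
HNF4A downstream start (chr20:43029629-43029878, plus): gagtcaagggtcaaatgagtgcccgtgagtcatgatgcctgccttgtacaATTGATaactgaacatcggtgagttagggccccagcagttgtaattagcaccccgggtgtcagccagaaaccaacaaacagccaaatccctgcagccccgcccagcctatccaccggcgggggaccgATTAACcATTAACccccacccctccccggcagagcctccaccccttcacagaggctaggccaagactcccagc
HNF4A-AS1 (chr20:43024347-43024596, minus): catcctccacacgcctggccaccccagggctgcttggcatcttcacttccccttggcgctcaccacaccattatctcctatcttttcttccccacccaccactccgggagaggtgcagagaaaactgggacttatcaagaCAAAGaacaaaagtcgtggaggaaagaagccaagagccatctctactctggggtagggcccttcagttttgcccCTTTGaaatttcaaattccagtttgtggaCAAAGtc
LINC00261 (chr20:22559281-22559530, minus): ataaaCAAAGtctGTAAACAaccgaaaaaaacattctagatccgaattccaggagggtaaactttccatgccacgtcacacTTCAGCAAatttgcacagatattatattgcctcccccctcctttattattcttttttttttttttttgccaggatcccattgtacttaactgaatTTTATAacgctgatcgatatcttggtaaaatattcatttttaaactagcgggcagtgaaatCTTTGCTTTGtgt
CEBPA (chr19:33793441-33793690, minus): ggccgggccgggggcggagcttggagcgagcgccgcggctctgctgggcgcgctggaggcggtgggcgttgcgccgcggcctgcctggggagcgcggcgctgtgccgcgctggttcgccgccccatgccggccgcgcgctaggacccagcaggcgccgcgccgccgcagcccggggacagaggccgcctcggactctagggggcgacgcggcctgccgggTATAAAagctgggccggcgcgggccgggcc
The starts of HNF4A lie 45540 bases apart, and the HNF4A-AS1 start shown lies 5533 bases before the downstream one, on the opposite strand. HNF4A-AS1 had another RefSeq window, not shown, at chr20:43024303-43024552 (minus). It overlaps the window shown and holds 44 exon bases of the RNA.

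Counting back from the start, the upstream HNF4A window held the ONECUT motif ATCAAT at -33, and the downstream window held it at -200. The downstream window also held GTTAAT, another motif of the search, at -73 and -66. Of all 35116 promoter windows, 5.58% held ATCAAT and 6.23% held GTTAAT. The HNF4A-AS1 window shown held 3 copies of CAAAG, part of the HNF4 element, a motif found in 42.1% of all windows. Its other window also held 3. LINC00261 held the forkhead motif TGTTTAC at -237, found in 2.98% of windows. It also held 3 copies of CAAAG, of which 2 lie end to end, TTGCNNAA (part of the C/EBP element, in 9.05% of windows) and TATAAA (10.7%). CEBPA held only a TATA box, at -30, in a window with a GC content of 81.2%. The windows of FOXA1 and FOXA3, which reach into annotated exons, held 4 copies of CAAAG and a TATA box respectively, and that of ONECUT1 held none of the 6 motifs. These matches are a description of letters and not evidence of binding.

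The libraries held between 29798442 and 45572694 counts, and levels are given as CPM, counts scaled to library size and TMM factors, which ran from 0.879 to 1.095. All 10 HepG2 markers were detected. Their summed level was 56200 to 62500 CPM in LG, 57500 to 65200 in HG, 51900 to 65400 in HGV and lower, 43600 to 45100, in LGV. Of 5 endothelial markers 2 were measured (CDH5 and VWF), and they summed to at most 4.85 CPM. Of 5 blood cell markers 3 were measured, and their sum of 912 to 1550 CPM was almost all LYZ, while CD14 had group means of at most 4.43 CPM. For stellate cells 2 of 5 markers, COL1A1 and PDGFRB, summed to 18.8 to 58.3 CPM. For bile duct cells 2 of 4, KRT19 and SOX9, summed to 314 to 358 CPM in LG, 392 to 447 in HG, 349 to 416 in LGV and 443 to 532 in HGV. The other listed markers were looked up and were not among the 16389 genes counted. All of those genes averaged at least 10 counts over the 12 libraries. The part of any of the measured markers in the differences below was not tested. In bulk RNA a smaller share of cells that express a gene and less of its RNA per cell cannot be told apart.

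Per kb of annotated exon, in LG cells, HNF4A had the highest level of the factors, 40.7 CPM per kb ± 4.51 (SD, n = 3), which is the 93.8th percentile of all genes. FOXA3 (34.3 ± 3.07), FOXA2 (28.4 ± 3.21) and FOXA1 (18.2 ± 1.09) followed. PROX1 (9.01 ± 0.813) was next, HNF4G stood at 3.27 ± 0.254, and CEBPA (1.70 ± 0.536) and ONECUT1 (1.11 ± 0.188) had the lowest levels per kb. The libraries of neighbours in this order overlapped for HNF4A (36.1 to 45.1) and FOXA3 (30.8 to 36.7), for FOXA3 and FOXA2 (25.4 to 31.8), and for CEBPA (1.08 to 2.01) and ONECUT1 (0.894 to 1.26), while the other neighbours were apart. Exon lengths pool all transcripts of a gene. With the length of the longest transcript the order in LG was the same, but HNF4A stood at 87.4 CPM per kb. The ratio of HNF4A to HNF4G per kb lay between 8.99 and 17.8 in the 12 libraries.

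**Figure D1:**
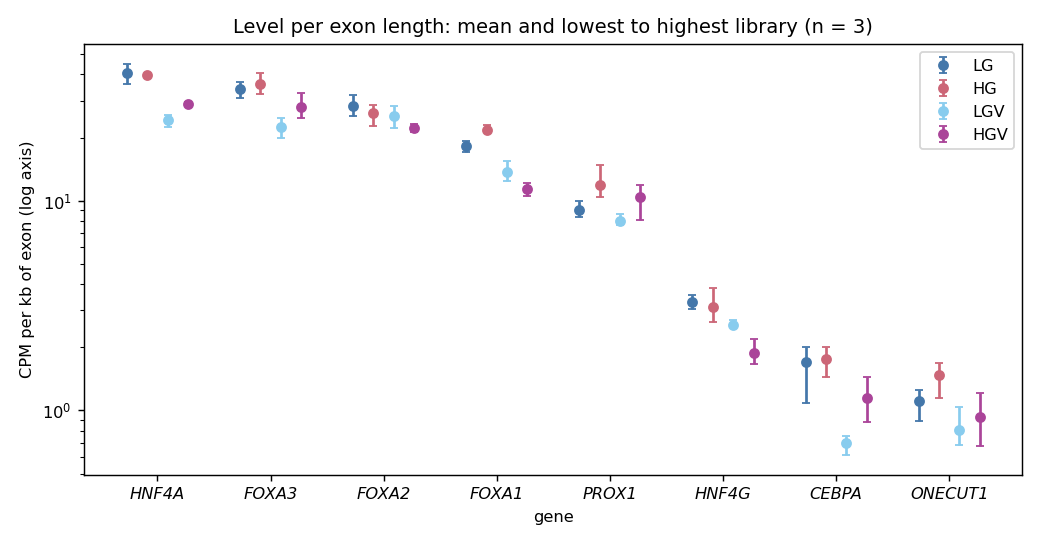
Level of each factor in CPM per kb of exon on a log axis, with the mean (point) and the lowest to highest library (bar, n = 3) of each group. HNF4A, FOXA3 and FOXA2 lie highest, CEBPA and ONECUT1 lowest, and in LGV the mean of CEBPA (0.703) falls below that of ONECUT1 (0.808).

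The effect of VPA under high glucose was the question of the comparison of HGV with HG cells. In HGV cells 6 of the 8 factors fell (HNF4A, HNF4G, FOXA1, FOXA3, CEBPA and ONECUT1) and none rose, by edgeR's quasi-likelihood test at a false discovery rate (FDR) of 0.05 or less. Over all 16188 genes tested, 46.1% were called, 25.8% higher and 20.2% lower. The log2 fold changes of the 8 factors were all negative, with a median of -0.545 against 0.0247 for all genes tested. For 4 of the 8 every HGV library lay below every HG library, a pattern that 24.5% of all genes showed. FOXA2 and PROX1 did not pass the test.

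FOXA1 had the largest fall of the 8. Its level was 94.4, 93.9 and 100.8 CPM in the 3 HG libraries and 49.6, 53.6 and 46.6 CPM in the 3 HGV libraries, so the groups were far apart. This was a log2 fold change of -0.95 (SE 0.10, 95% interval -1.17 to -0.73, FDR 9.13e-06 by edgeR's quasi-likelihood test), a 1.93-fold lower level. Only 5.24% of all genes had a log2 fold change as low or lower in this comparison. The other forkhead factors had smaller changes. FOXA3 was at 68.7, 74.2 and 86.7 CPM in HG and 52.8, 69.0 and 56.4 CPM in HGV. The groups overlapped by 1 library on each side, and the log2 fold change was -0.37 (SE 0.13, FDR 0.0331). FOXA2, at 62.0, 77.7 and 74.4 CPM in HG and 61.1, 63.1 and 57.5 CPM in HGV, had a log2 fold change of -0.24 with a 95% interval from -0.48 to 0.0044 (FDR 0.1).

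The share of FOXA1 in the summed forkhead signal per kb was 25.1% to 28% in the HG libraries and 17.9% to 19.2% in the HGV libraries. In LG it was 21.3% to 23.6% and in LGV 21.9% to 22.7%. The share was therefore lower in every HGV library than in any other library, while FOXA3 remained the largest of the 3 in HGV with 42.4% to 47.9%.

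HNF4A was at 408.7, 404.3 and 399.8 CPM in HG and 286, 301.5 and 291.8 CPM in HGV. The libraries within each group were close together and the groups did not overlap, and the log2 fold change was -0.46 (SE 0.094, 95% interval -0.67 to -0.26, FDR 0.00141 by edgeR), 1.38-fold lower. Its relative HNF4G, at much lower counts, was at 18.4, 12.6 and 14.1 CPM in HG and 8.46, 8.01 and 10.5 CPM in HGV. Here too every HGV library was the lower one, with a log2 fold change of -0.74 (SE 0.17, FDR 0.00309).

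CEBPA was at 3.77, 4.76 and 5.21 CPM in HG and 2.3, 2.85 and 3.76 CPM in HGV. The highest HGV library lay just under the lowest HG library, and the log2 fold change was -0.63 (SE 0.21, 95% interval -1.08 to -0.17, FDR 0.0283). ONECUT1 was at 10.2, 9.90 and 6.97 CPM in HG and 5.58, 4.11 and 7.38 CPM in HGV. Its groups overlapped, and the log2 fold change was -0.67 (SE 0.22, FDR 0.0234). PROX1 was at 132.1, 93.5 and 92.8 CPM in HG and 106.1, 72.0 and 99.5 CPM in HGV, a log2 difference of -0.20 with a 95% interval from -0.56 to 0.16 (FDR 0.355).

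The falls of HNF4A, HNF4G and FOXA1 passed the test under each of 15 other settings. Those of FOXA3, CEBPA and ONECUT1 were past the threshold in 9, 11 and 10 of them. Each of these calls was lost without HG replicate 2 and without HGV replicate 1, among others, and over the 15 settings the FDR reached 0.173 for FOXA3, 0.114 for CEBPA and 0.0755 for ONECUT1.

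**Figure D2:**
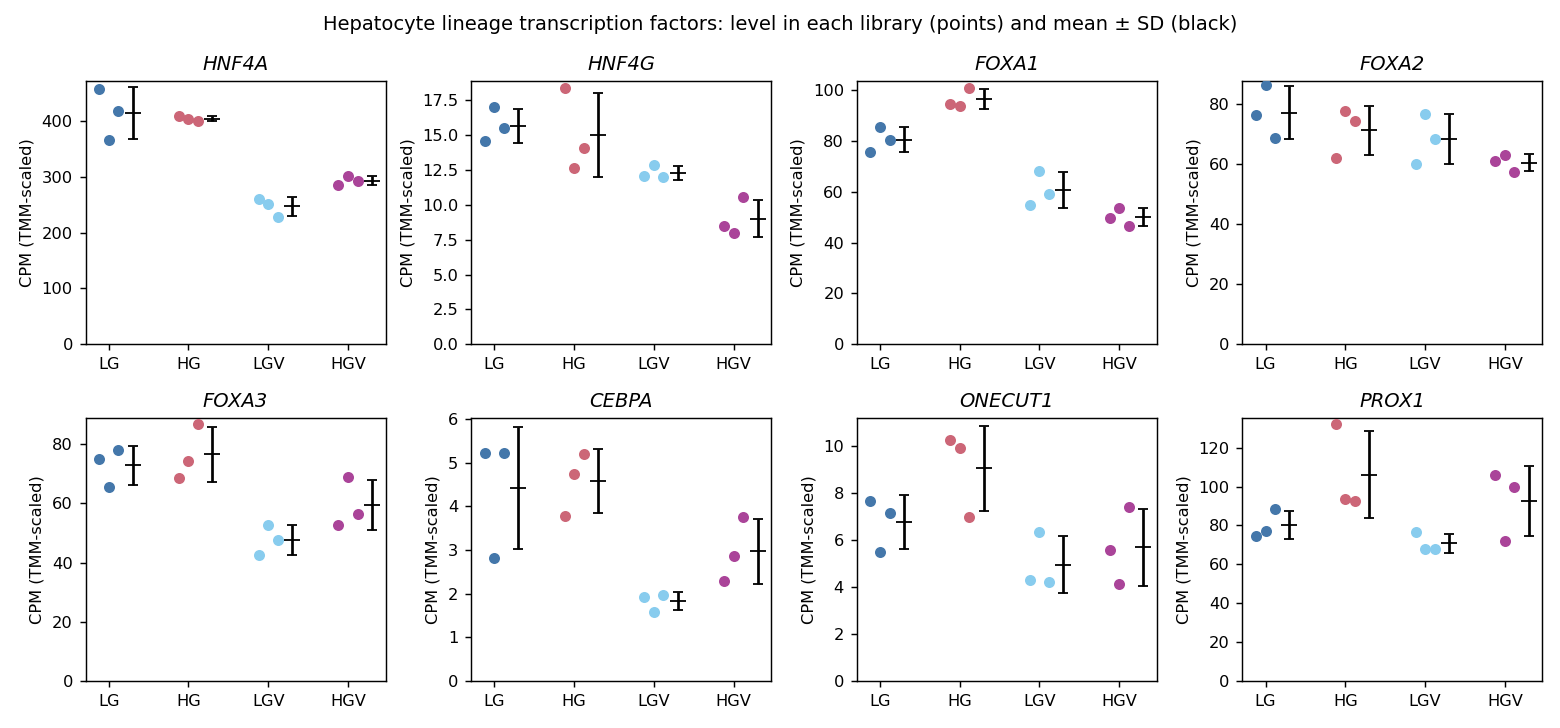
Level of each factor in CPM (y axis, from 0) in the 3 libraries of each group (points) with the mean and SD (black). FOXA1 drops from 93.9 to 100.8 CPM in HG to 46.6 to 53.6 CPM in HGV, whereas the points of FOXA2 and PROX1 overlap between those groups.

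In cells kept at low glucose, the same comparison of VPA with no VPA set LGV against LG. HNF4A, FOXA1, FOXA3 and CEBPA fell, 4 of the 8, and none rose. Among the 15944 genes tested 41.6% were called, 21.7% higher and 19.9% lower. Again the log2 fold changes of the 8 factors were all negative, with a median of -0.419 against -0.00569 for all genes. Every LGV library lay below every LG library for 5 of the 8 factors (those 4 and HNF4G), and for 24.8% of all genes.

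CEBPA had the largest fall, from 5.24, 2.82 and 5.23 CPM in LG to 1.92, 1.59 and 1.98 CPM in LGV. LG replicate 2 stood apart from its group and still lay above every LGV library. Its log2 fold change was -1.26 (SE 0.27, 95% interval -1.83 to -0.68, FDR 0.00164), or 2.39-fold lower, and 2.62% of all genes had a log2 fold change as low or lower. Reads on 659 of the exon bases of CEBPA could also come from an antisense RNA on the other strand if counting ignored the strand, which the sources do not settle.

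HNF4A was at 458.1, 366.6 and 417.9 CPM in LG and 260.9, 252.1 and 228.3 CPM in LGV. The groups were more than 100 CPM apart, and the log2 fold change was -0.73 (SE 0.13, 95% interval -1.003 to -0.46, FDR 0.000299), 1.66-fold lower. HNF4G was at 14.6, 17.0 and 15.5 CPM in LG and 12.1, 12.9 and 12.0 CPM in LGV. Its log2 difference of -0.34 had a 95% interval from -0.65 to -0.03 but an FDR of 0.0745.

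Among the forkhead factors FOXA3 had the largest fall here, from 75.01, 65.5 and 78.0 CPM in LG to 42.5, 52.8 and 47.6 CPM in LGV, with no overlap. Its log2 fold change was -0.60 (SE 0.12, FDR 0.00128), 1.52-fold lower. FOXA1 was at 75.7, 85.3 and 80.4 CPM in LG and 54.8, 68.3 and 58.9 CPM in LGV, and its log2 fold change of -0.40 (SE 0.12, FDR 0.0157) was lost with library size as the only scaling, without LGV replicate 1 and without LGV replicate 3 (highest FDR 0.0834). FOXA2, at 76.5, 86.4 and 69.0 CPM in LG and 60.3, 76.9 and 68.6 CPM in LGV, overlapped between groups (log2 difference -0.16, 95% interval -0.43 to 0.11, FDR 0.344).

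ONECUT1 was at 7.67, 5.47 and 7.15 CPM in LG and 4.29, 6.33 and 4.19 CPM in LGV, with 1 LGV library among the LG values. The log2 difference was -0.44 (95% interval -0.91 to 0.02, FDR 0.121). PROX1 was at 74.8, 77.4 and 88.4 CPM in LG and 76.6, 68.1 and 68.0 CPM in LGV, a log2 difference of -0.17 (95% interval -0.42 to 0.09, FDR 0.287). In LGV, where the summed HepG2 markers were also lower than in LG, these falls ran beside a lower level of the marker genes, and the part of the one in the other was not tested. In HGV the summed markers overlapped those of HG.

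**Figure D3:**
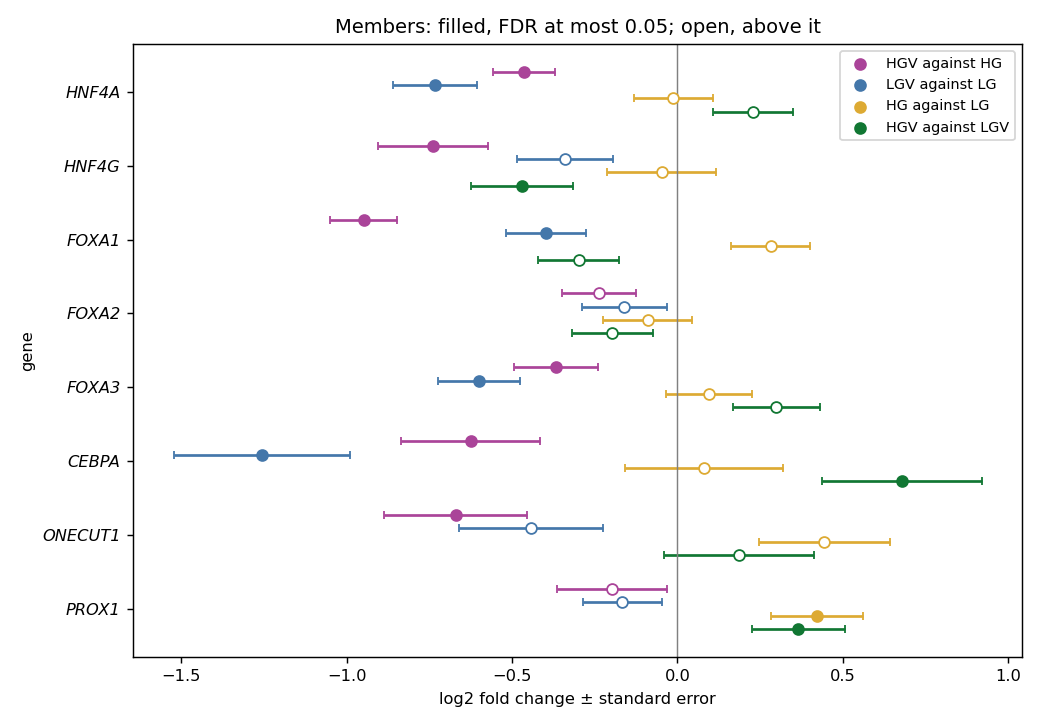
Log2 fold change (x axis, with its standard error as a bar) of each factor in the 4 comparisons, filled where the FDR is at most 0.05. All VPA comparisons lie left of 0, with FOXA1 lowest in HGV against HG (-0.95) and CEBPA lowest in LGV against LG (-1.26), and the glucose comparisons lie on both sides.

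Whether the response to VPA differed with glucose was tested as an interaction over the 12 libraries. None of the 8 factors passed, at a background of 0.0427% of the 16389 genes tested (7 genes), and none passed with edgeR's likelihood ratio test or the Wald test of DESeq2. At an unadjusted p under 0.05 the count was 1 of 8, FOXA1, beside 1852 of the 16389 genes, so that a single factor is not set apart from the background. FOXA1 had an interaction of -0.54 on the log2 scale (SE 0.16, 95% interval -0.87 to -0.21, FDR 0.172 by edgeR's quasi-likelihood test), meaning a larger fall with VPA in high glucose. For CEBPA and HNF4A the interaction had the other sign, 0.64 (95% interval -0.09 to 1.38, FDR 0.514) and 0.28 (-0.04 to 0.61, FDR 0.518). For HNF4G it was -0.39 (-0.85 to 0.08, FDR 0.544). The intervals are wide, and the test does not show that the responses were alike.

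The effect of glucose by itself was the question of HG against LG. PROX1 was the only one of the 8 factors called, and it rose, while 24.7% of the 15452 genes tested were called, 12% higher and 12.7% lower. PROX1 was at 74.8, 77.4 and 88.4 CPM in LG and 132.1, 93.5 and 92.8 CPM in HG. Every HG library was above every LG library and HG replicate 1 was far above the others. The log2 fold change was 0.42 (SE 0.14, 95% interval 0.13 to 0.71, FDR 0.0334), 1.34-fold. The call was lost without HG replicate 1, without LG replicate 1 or without LG replicate 2, in the fit of all 12 libraries and with replicate number as a block (highest FDR 0.173).

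FOXA1 was likewise higher in each HG library (93.9 to 100.8 CPM) than in each LG library (75.7 to 85.3 CPM), with a log2 difference of 0.28 (95% interval 0.03 to 0.53) that did not pass (FDR 0.0886). ONECUT1 had a log2 difference of 0.44 (95% interval 0.03 to 0.86, FDR 0.106). HNF4A had means of 414 CPM ± 45.8 in LG and 404 CPM ± 4.44 in HG (SD, n = 3), a log2 difference of -0.01 with a 95% interval from -0.26 to 0.24. For HNF4G, FOXA2, FOXA3 and CEBPA the log2 differences lay between -0.09 and 0.10, each with an FDR of at least 0.624. The sign of HNF4A, HNF4G and FOXA2 turned when the scaling was changed to upper quartile factors or library size.

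Between HGV and LGV cells, CEBPA and PROX1 were higher in high glucose and HNF4G was lower, 3 of the 8. Of the 16208 genes tested 40.7% were called, 21.2% higher and 19.5% lower. CEBPA was at 1.92, 1.59 and 1.98 CPM in LGV and 2.3, 2.85 and 3.76 CPM in HGV, with no overlap, a log2 fold change of 0.68 (SE 0.24, FDR 0.0316) and a 1.6-fold higher level. PROX1 (log2 fold change 0.37, SE 0.14, FDR 0.0433) had 1 HGV library, at 72.0 CPM, among the LGV values. HNF4G was at 12.1, 12.9 and 12.0 CPM in LGV and lower in every HGV library, 8.46, 8.01 and 10.5 CPM, with a log2 fold change of -0.47 (SE 0.15, FDR 0.0212).

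The 3 calls between HGV and LGV were not firm. Each was lost without LGV replicate 2 or without LGV replicate 3. CEBPA was also lost without HGV replicate 3, PROX1 without HGV replicate 1 or HGV replicate 3 and with DESeq2, and HNF4G without HGV replicate 1 or HGV replicate 2 and with upper quartile or library size scaling, and the highest FDR over 15 alternatives was 0.188 for CEBPA, 0.207 for PROX1 and 0.0841 for HNF4G. HNF4A was higher in every HGV library (286 to 301.5 CPM) than in every LGV library (228.3 to 260.9 CPM) without passing (log2 difference 0.23, 95% interval -0.03 to 0.48, FDR 0.14), and FOXA1 was lower in every HGV library (log2 difference -0.30, 95% interval -0.56 to -0.04, FDR 0.0598). The log2 differences of FOXA3 (0.30, FDR 0.0753), FOXA2 (-0.20, FDR 0.209) and ONECUT1 (0.19, FDR 0.538) did not pass.

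Of the 4 noncoding RNAs at the loci of these factors, 2 fell and 1 rose in HGV against HG, where 46.1% of all genes tested were called. HNF4A-AS1, a long noncoding RNA at chr20:43001386-43024346 on the minus strand that shares no exon base with HNF4A, was at 5.64, 4.13 and 3.64 CPM in HG and 0.092, 0.452 and 0.324 CPM in HGV. Those HGV values rest on 3, 19 and 11 counts, against 178, 138 and 130 in HG. The groups were more than 3 CPM apart. Its log2 fold change of -3.88 (SE 0.36, FDR 2.75e-06 by edgeR) ranked 1 of 16188 genes from the lowest. In LG it was at 4.19, 2.42 and 3.96 CPM and in LGV at 0.600, 0.487 and 0.374 CPM (20, 15 and 14 counts). There the log2 fold change was -2.84 (SE 0.31, FDR 6.07e-06), which ranked 2 of 15944. The same comparisons gave -0.46 and -0.73 for HNF4A itself, whose gene spans that RNA. If counting ignored the strand, which the sources do not settle, reads from introns of HNF4A could be counted for HNF4A-AS1. Between HG and LG cells HNF4A-AS1 had a log2 difference of 0.37 (FDR 0.271). The fall passed the test under every alternative, with a log2 fold change between -4.38 and -3.50 in HGV against HG.

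LINC00261, whose promoter window holds the forkhead motif shown above at -237, lies at chr20:22528301-22559280 on the minus strand, downstream of FOXA2. It was at 150.3, 110.1 and 117.4 CPM in HG and 68.7, 53.2 and 66.6 CPM in HGV, with a log2 fold change of -1.004 (SE 0.14, FDR 8.3e-05). In LG it was at 99.96, 133.4 and 136.3 CPM and in LGV at 58.2, 66.7 and 72.2 CPM, with a log2 fold change of -0.90 (SE 0.14, FDR 0.000135). No VPA library reached the level of any untreated library. FOXA2, on the same strand, did not pass the test in either comparison.

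PROX1-AS1, at chr1:213991094-214161851 on the minus strand, rose with VPA and with glucose. It was at 2.06, 1.77 and 2.50 CPM in LG, 7.32, 7.99 and 6.47 CPM in HG, 4.38, 4.51 and 3.18 CPM in LGV and 16.7, 15.7 and 16.2 CPM in HGV. The groups did not overlap, in the order LG, LGV, HG and HGV. The log2 fold change was 1.16 (SE 0.13, FDR 1.66e-05) in HGV against HG, 0.94 (SE 0.24, FDR 0.00572) in LGV against LG and 1.80 (SE 0.21, FDR 1.09e-05) in HG against LG. It was 2.00 (SE 0.17, FDR 2.05e-07) in HGV against LGV. PROX1 and PROX1-AS1 share 163 exon bases on opposite strands, so that, if counting ignored the strand, reads there could belong to either.

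CEBPA-AS1, at chr19:33793763-33795960 on the plus strand, was at 0.524, 0.175 and 1.20 CPM in LG and 0.15, 0.195 and 0.107 CPM in LGV, and the groups overlapped. The log2 fold change was -2.07 (SE 0.64, FDR 0.0171), and the call was lost without LGV replicate 3 (FDR 0.0708). In HG it was at 1.59, 1.495 and 1.37 CPM, and in HGV at 0.920, 1.17 and 1.18 CPM, a log2 difference of -0.44 that did not pass (FDR 0.139). Between HGV and LGV the groups were well apart, with a log2 fold change of 2.83 (SE 0.41, FDR 4.75e-05), 7.11-fold, in the same direction as CEBPA there. The LGV values rest on 5, 6 and 4 counts. CEBPA-AS1 was thus tested against LGV only through the counts of the other group. The log2 fold change of 1.23 in HG against LG (FDR 0.0367) was lost with library size as the only scaling and without HG replicate 1, HG replicate 3, LG replicate 1 or LG replicate 2, and was 2.21 without LG replicate 3.

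**Figure D4:**
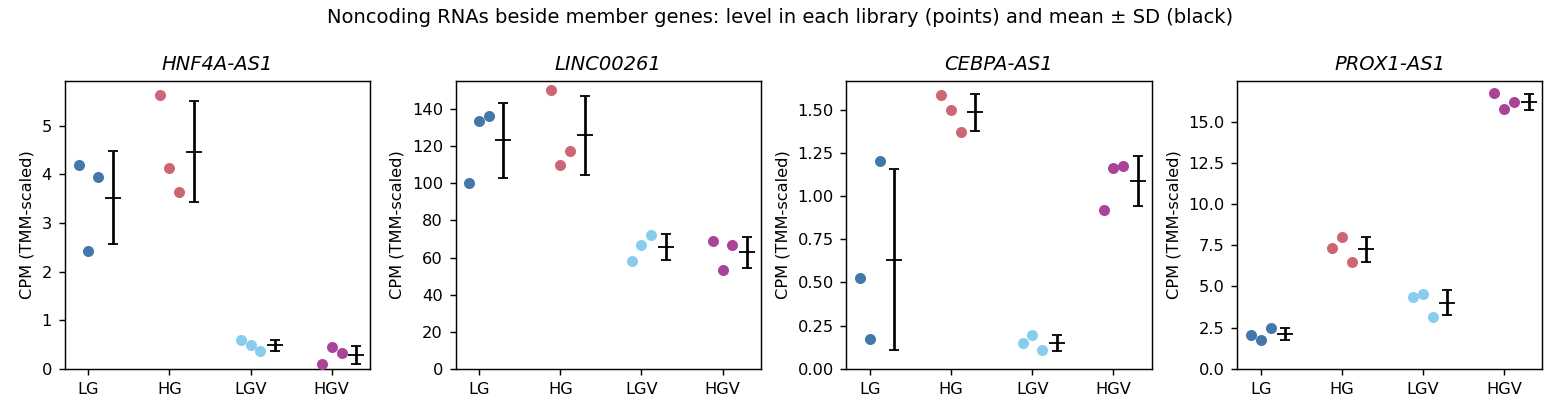
Level in CPM (y axis, from 0) of the noncoding RNAs beside HNF4A, FOXA2, CEBPA and PROX1 in the 3 libraries of each group (points), with the mean and SD (black). HNF4A-AS1 has means of 0.487 CPM in LGV and 0.289 CPM in HGV against 3.52 and 4.47 CPM in LG and HG, LINC00261 is lower in both VPA groups, and PROX1-AS1 is highest in HGV (16.2 CPM).

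As given above, 46.1% of all genes tested were called in HGV against HG and 41.6% in LGV against LG. Of 21 other hepatocyte-enriched regulators, all tested, 10 fell and 4 rose in HGV against HG (median log2 fold change -0.266), and 8 fell and 3 rose in LGV against LG (median -0.206). Among those that fell in HGV were ATF5, a stress-responsive leucine zipper factor (log2 fold change -2.26, SE 0.13, FDR 6.37e-08), CEBPD, a relative of CEBPA induced in inflammation (-2.12, SE 0.22, FDR 7.02e-06), and NR1H4, the bile acid receptor FXR (-1.79, SE 0.13, FDR 3.12e-07). GATA6 (0.71), ONECUT2 (0.49), CREB3L3 (0.46) and PPARA (0.41) rose there. In LGV the same 3 led, CEBPD (-1.63), ATF5 (-1.59) and NR1H4 (-1.32), followed by NR0B2, the corepressor SHP (-0.91, SE 0.13, FDR 5.61e-05), and GATA6 (0.74), ONECUT2 (0.51) and CREB3L3 (0.49) rose. ONECUT2 thus rose in both VPA comparisons, though its call in HGV against HG (FDR 0.046) was lost in 6 of 15 alternatives, among them leaving out any single HG library (highest FDR 0.175). Its relative ONECUT1 had negative values in both. PPARA and CREB3L3 in HGV were lost without HG replicate 2 or HG replicate 3 (also PPARA without HGV replicate 1 and CREB3L3 without HGV replicate 3, highest FDR 0.0944 and 0.0673), and CREB3L3 in LGV without LG replicate 3, LGV replicate 2 or LGV replicate 3 (highest FDR 0.0964).

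With glucose 9 of the 21 fell and 2 rose in HG against LG (median -0.24), with ATF5 (-0.87), NR5A2 (-0.73), PPARA (-0.66) and GATA4 (-0.65) lowest and CEBPD (0.83) and CREB3L3 (0.49) higher. In HGV against LGV 9 fell and 2 rose, ATF5 (-1.56), NR1H4 (-0.94), NFIA (-0.82) and NR5A2 (-0.70) being lowest, and NR1I3 (0.73) and CREB3L3 (0.43) the ones that rose. Of all genes tested 24.7% were called in HG against LG and 40.7% in HGV against LGV. Between HG and LG the calls of CEBPD (without LG replicate 1), NR5A2 (without HG replicate 2) and CREB3L3 (without HG replicate 1, HG replicate 3, LG replicate 2 or LG replicate 3) were lost, with highest FDRs of 0.0569, 0.0646 and 0.186. That of NR1I3 was lost without HGV replicate 1, LGV replicate 2 or LGV replicate 3 (highest FDR 0.0996).

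Hepatocyte products that are described as targets of these factors were measured for 29 of 33 genes. In HGV against HG 14 fell and 2 rose (median -0.231), and in LGV against LG 19 fell and none rose (median -0.603). Of all genes tested 20.2% and 19.9% fell in these comparisons. Haptoglobin (HP), an acute phase protein, fell from 550.2 to 130.3 CPM (group means, log2 fold change -2.08, SE 0.27, FDR 5.74e-05) in high glucose and from 127.8 to 19.0 CPM (-2.74, SE 0.38, FDR 4.69e-05) in low glucose. HP was at 71.1, 75.5 and 236.7 CPM in the LG libraries, so that replicate 3 stood apart, and without LG replicate 3 the log2 fold change in low glucose was -1.92. CYP8B1 (-1.92 in HGV and -2.22 in LGV) and CYP7A1 (-1.71 and -1.65), both enzymes of bile acid synthesis, and F7, clotting factor VII (-1.73 and -1.65), also fell in both. PCK1, an enzyme of gluconeogenesis (0.79, SE 0.14, FDR 0.000636), and TTR, the carrier transthyretin (0.51, FDR 0.00914), rose in HGV. ALB, the gene of albumin, had log2 differences of -0.11 (FDR 0.568) and -0.37 (FDR 0.0581).

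Glucose moved more of these products up than down. In HG against LG 12 rose and 2 fell (median 0.267), among them HP (2.12, SE 0.30, FDR 7.95e-05, but 2.93 without LG replicate 3), APOC3 (1.38) and G6PC (1.18), with TAT (-0.61) and APOA2 (-0.56) the ones that fell. In HGV against LGV 15 rose and 3 fell (median 0.397), among them HP (2.76, SE 0.27, FDR 1.01e-06), APOC3 (1.69) and FGA (1.23), and TAT (-0.80), APOA2 (-0.61) and CYP27A1 (-0.53) fell. Of all genes tested 12% rose in HG against LG and 21.2% in HGV against LGV. Between HG and LG the call of TAT was lost without HG replicate 3 or LG replicate 1 and that of APOA2 without HG replicate 1 or LG replicate 1 (highest FDR 0.0711 and 0.0753). The 8 factors had 1 and 2 calls in the higher direction in the same comparisons, with median log2 differences of 0.0882 and 0.207 against 0.0107 and 0.00962 for all genes.

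Of 14 coregulators that these factors and their nuclear receptor partners use, 2 rose and 5 fell in HGV against HG, and 3 rose and 2 fell in LGV against LG. Over all genes tested the shares called were 46.1% and 41.6%, and a difference of the coregulators from them was not tested. PPARGC1B, a coactivator of oxidative metabolism, rose from 1.60 to 7.39 CPM in high glucose (log2 fold change 2.21, SE 0.20, FDR 2.48e-06) and from 1.14 to 5.94 CPM in low glucose (2.40, SE 0.31, FDR 2.7e-05). HDAC3, a histone deacetylase, also rose (0.54 and 0.36, the call in LGV being lost without LG replicate 1, LGV replicate 2 or LGV replicate 3, highest FDR 0.112), as did NCOA1 in LGV (0.39). The acetyltransferase CREBBP fell by 1.33 and by 0.79 on the log2 scale, the steroid receptor coactivator NCOA2 by 1.17 and by 0.77. NCOA6 (-0.59) and NCOR1 (-0.51) fell in HGV. Of the coregulators none rose and 3 fell in HG against LG, NCOA6 (-0.65), the acetyltransferase EP300 (-0.53) and PPARGC1A (-0.41). EP300 was lost without HG replicate 3, and PPARGC1A with upper quartile or library size scaling and without HG replicate 2, HG replicate 3, LG replicate 1 or LG replicate 2 (highest FDR 0.0653 and 0.165). In HGV against LGV none rose and 8 fell, with NCOA6 (-1.01), EP300 (-0.82), CREBBP (-0.80) and PPARGC1A (-0.67) lowest. Of all genes tested 12.7% fell in HG against LG and 19.5% in HGV against LGV.

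Genes of bile duct cells and liver progenitors moved in both directions. Among 9 of 12 measured, 3 rose and 2 fell in HGV against HG, and 4 rose and 1 fell in LGV against LG. Over all genes tested the shares called were 46.1% and 41.6%, and a difference of this list from them was not tested. KRT19, a keratin of bile duct cells (1.21 and 0.70), NOTCH2, a receptor of bile duct formation (0.66 and 0.99), and SOX4 (0.55 and 0.60) rose in both, and JAG1, a Notch ligand, rose in LGV (0.41). SPP1, the gene of osteopontin, fell in both (-0.66 and -1.47), and EPCAM fell in HGV (-0.63). SOX4 in HGV was lost without HG replicate 3 or HGV replicate 1, and JAG1 in LGV without LG replicate 2 or LGV replicate 3 (highest FDR 0.0627 and 0.0819). In HG against LG the Notch target HES1 (0.83) and SOX9 (0.52) rose, and PROM1 (-0.71), JAG1 (-0.70) and SPP1 (-0.63) fell, SPP1 being lost with library size scaling and without HG replicate 1, HG replicate 3 or LG replicate 3 (highest FDR 0.0884). In HGV against LGV HES1 (0.83) and SOX9 (0.40) rose, and JAG1 (-0.95), PROM1 (-0.75), SOX4 (-0.36) and EPCAM (-0.35) fell. There SOX9 was lost without HGV replicate 1 or LGV replicate 3, and SOX4 and EPCAM without HGV replicate 3, LGV replicate 2 or LGV replicate 3, among others (highest FDR 0.102, 0.159 and 0.0838).

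Of 12 regulators of other endoderm lineages 5 were measured, and in untreated cells 4 of them had means of at most 0.535 CPM. The other one was ISX, an intestine factor, with means of 1.04 CPM in LG and 1.56 CPM in HG and log2 differences with VPA of 0.02 (FDR 0.963) in low and 0.11 (FDR 0.719) in high glucose. PDX1, a pancreas factor, had means of 0.118 CPM in LG and 0.535 in HG, and rose to 1.64 CPM in LGV (log2 fold change 3.72, SE 0.44, FDR 1.08e-05) and 4.37 CPM in HGV (3.02, SE 0.26, FDR 1.45e-06). CDX2, an intestine factor (2.25 in LGV and 2.59 in HGV), and GATA5 (1.96 and 1.86) rose too, as did SOX2 in LGV (2.98, FDR 0.00056), which had too few counts to be tested in HGV against HG. The PDX1 levels rest on 2, 2 and 9 counts in LG, 12, 26 and 16 in HG, 53, 55 and 58 in LGV and 141, 195 and 141 in HGV, and the fitted fold changes of such low genes depend on the prior count. LG replicate 3 held most of the LG counts of PDX1, and without it the log2 fold change was 4.71 in LGV against LG and 3.11 in HG against LG. For SOX2, with 1, 6 and 1 counts in LG, it was 4.18 in LGV against LG without LG replicate 2. These genes reached means of at most 4.37 CPM. Without VPA, CDX2, GATA5 and SOX2 had mean counts below 10, the filter of the test. They were tested only through their VPA libraries, so the filter set the direction and the rises are no independent support. PDX1 had a mean count below 10 in LG, so the same holds for its comparisons with LG. With glucose PDX1 rose in HG against LG (2.13), where PDX1 and ISX alone had enough counts to be tested, and in HGV against LGV (1.4), where it was the only one of 5 called. Of 12 relatives of the factors by family, 3 rose and 2 fell in HGV against HG and, of 11 tested, 2 rose and 3 fell in LGV against LG. Over all genes tested the shares called were 46.1% and 41.6%. ONECUT3 (2.24 and 1.92) rose from means of 0.176 CPM in HG and 0.284 CPM in LG, CEBPE rose in HGV (2.04, and 2.75 without HG replicate 2, which held 9 of its counts against 4 and 2), and CEBPG fell in both (-0.66 and -0.52), as did the proliferation factor FOXM1 in LGV (-0.54, lost with library size scaling, FDR 0.0755). ONECUT3 and CEBPE also had mean counts below 10 without VPA, so the filter set the direction of their rises too. In HG against LG CEBPG (-0.41) and ONECUT2 (-0.51) fell and CEBPD rose, and in HGV against LGV CEBPG (-0.58), ONECUT2 (-0.55) and FOXP1 (-0.55) fell and FOXM1 (0.48) and FOXO1 (0.38) rose. Leaving out LGV replicate 2 lost both of these rises (highest FDR 0.0557 and 0.107), and FOXO1 was also lost without HGV replicate 1 or LGV replicate 3. Leaving out LG replicate 1 or LG replicate 2 lost both falls in HG against LG, as did leaving out HG replicate 3 (highest FDR 0.114 for CEBPG and 0.161 for ONECUT2).

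**Figure D5:**
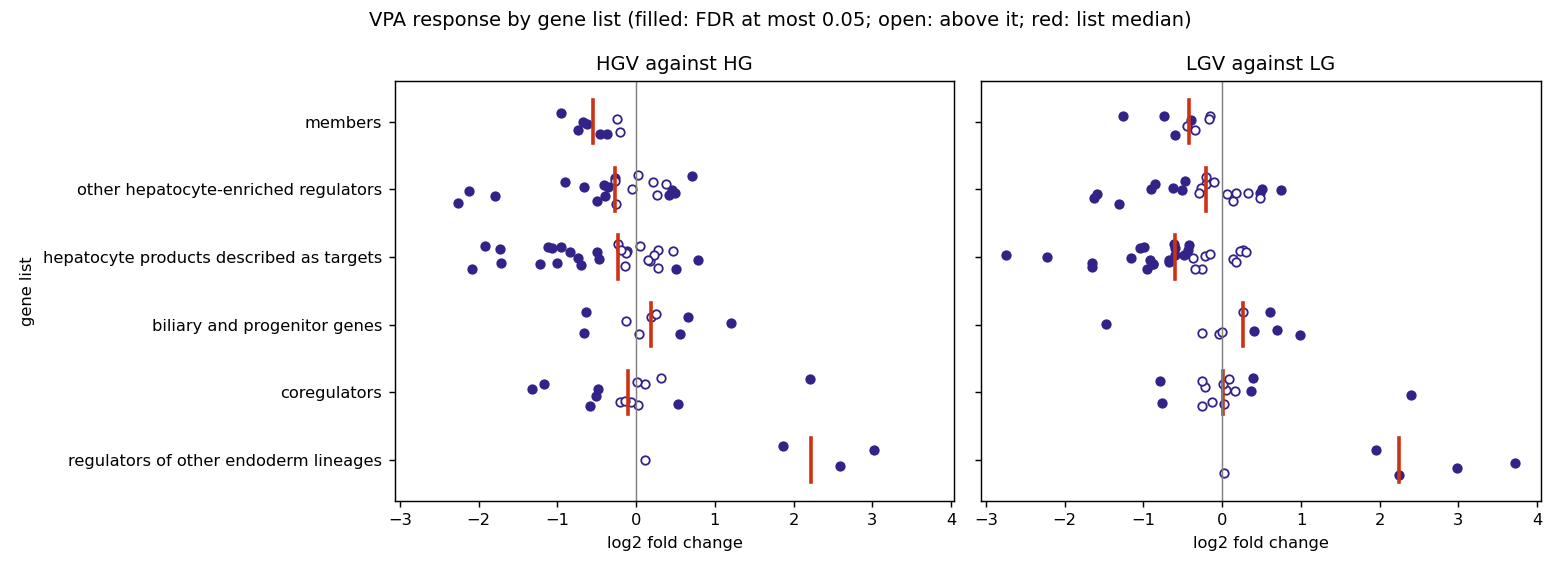
Log2 fold change (x axis) of each tested gene of the factors and 5 of the other gene lists in HGV against HG (left) and LGV against LG (right), filled where the FDR is at most 0.05, with the list median in red. The factors lie between -0.95 and -0.20 in HGV against HG and show no positive value in either panel, while the 14 falling products reach -2.08.

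The profiles of the factors over the 12 libraries were compared as the root mean square difference of log2 CPM, each gene centred on its own mean. The closest pair was HNF4A and FOXA3 (0.154), followed by HNF4G and FOXA1 (0.232) and HNF4A and FOXA1 (0.253), and FOXA2 and CEBPA were farthest apart (0.509). Genes outside the set came closer. That follows from the search, which took the smallest distances among all genes with a mean of at least 1 CPM. These are far more than the factors, so it does not show whether the factors vary together. The nearest to HNF4A were PEX26 (0.0776), C12orf65 (0.0868) and LAMTOR1 (0.0882), against a median of 0.434 over all genes compared. The nearest to FOXA1 were TCEAL1 (0.0828), ZBED1 (0.0924) and SET (0.101), to FOXA2 DEDD (0.0709), WBP11 (0.075) and IST1 (0.077), and to FOXA3 MZT2B (0.0777), MRPL11 (0.0883) and CINP (0.0956). For HNF4G they were TYW3 (0.0691), RCOR3 (0.0893) and PHF10 (0.0916), and for PROX1 LINC00265 (0.102), NHLRC2 (0.105) and ZNF283 (0.106). CEBPA (MRPL12 0.129 and METTL1 0.152) and ONECUT1 (RP11-156P1.3 0.176, HHAT 0.207 and DMD 0.209) had less close neighbours, at the lowest counts of the 8. Genes in the same libraries share depth and scaling, so these distances are a description.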

How the data were processed

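RNA from 12 HepG2 libraries, 3 in each of LG, HG, LGV and HGV, was sequenced from one end after poly(A) selection. The authors used STAR for alignment to GRCh37 and featureCounts for counting over Ensembl genes, and deposited raw counts, without normalization, for 16389 genes. All of these averaged at least 10 counts over the 12 libraries, and the paper left genes averaging fewer than 10 reads per sample out of its analysis. Shares and percentiles of all genes are therefore shares of these genes. A gene with few counts without VPA could enter them through its VPA libraries. The strand setting of the counting is not given in the sources used here. Per the labels, bcl2fastq 2.17.1.14 made the reads.

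Tests were run in edgeR 4.0.16 under R 4.3.3 on genes whose mean count reached 10 in the libraries compared (TMM factors, quasi-likelihood test, Benjamini-Hochberg FDR of 0.05 or less over all genes tested). The 4 comparisons each used their own 6 libraries, and the interaction used 12. Each SE was worked back from the test, as the absolute log2 fold change divided by the square root of its F statistic. The 95% intervals used this SE and the t quantile of the moderated fit. Both are approximate, above all at low counts, where the fold change depends on the prior count. Alternatives were DESeq2 1.42.0, other scalings, filters and tests, a replicate block, one fit of all libraries, an FDR of 0.01 and leaving out each library. The test was also tested on simulated data. Total counts per library, 29798442 to 45572694, set the precision of low genes.

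The 8 factors, the gene lists and the tests were chosen with earlier results of these data known, so no list is independent support. Named were all 8 factors, in each other list the 4 called genes with the largest log2 fold change in each direction per comparison, and for each factor the 3 genes nearest in profile among those with a mean of at least 1 CPM. A few genes chosen by it are not reported here. ALB was named outside it, after its values were seen. Motif windows came from RefSeq, and positions and exon lengths from GENCODE on GRCh37, where 97.47% of identifiers were found. CPM were scaled with TMM factors. Plots were drawn with matplotlib 3.10.9 in Python 3.11.15.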

Additional observations from a re-analysis of the deposited data

Results flagged for a closer look

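In 3 genes the libraries moved with glucose in opposite directions without and with VPA: every HG library lay on one side of every LG library, and every HGV library on the other side of every LGV library. They were found by scanning the genes of all lists except the cell type markers. The share of all genes with this pattern was not computed. Groups without overlap, in either direction, were seen for 41.2% of all genes in HG against LG and 51.4% in HGV against LGV. For FOXA1, higher in HG and lower in HGV, the interaction was -0.54 on the log2 scale (FDR 0.172 by edgeR's quasi-likelihood test). For NCOA2, a coactivator of nuclear receptors with the same pattern, it was -0.38 (FDR 0.417). For NR0B2, the corepressor SHP, which was lower in HG and higher in HGV, it was 0.67 (FDR 0.114). None of the 3 interactions passed the adjusted threshold, so a difference in the response was not established. Of the glucose differences by the same test, only that of NR0B2 in HG against LG passed (FDR 0.0107). Without and with VPA the FDRs were 0.0886 and 0.0598 for FOXA1 and 0.206 and 0.232 for NCOA2. For NR0B2 with VPA the FDR was 0.367. The nearest LGV and HGV libraries were at 28.71 and 28.35 CPM for NCOA2 and at 100.4 and 101.6 CPM for NR0B2. With 3 libraries a group, single libraries could not be tested as outliers.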

How the results depend on the processing

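Every log2 fold change of the 8 factors was negative in HGV against HG and in LGV against LG under every one of the 15 alternatives. Their count of calls in HGV against HG, 6, became 3 with library size as the only scaling, 3 at an FDR of 0.01 and 3 to 6 with single libraries left out. In LGV against LG the count of 4 ran from 3 to 5 with libraries left out. In HG against LG the count of 1 became 2 with upper quartile factors, 2 with library size only, 0 with one fit of all 12 libraries, 0 at an FDR of 0.01 and 0 to 1 with libraries left out. In HGV against LGV the count of 3 became 0 at an FDR of 0.01 and 0 to 4 with libraries left out. The interaction count was 0 throughout. The cause of these shifts was not tested, apart from the smaller number of libraries or stricter threshold where that is the alternative itself.

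Replicate numbers did not pair the libraries consistently. Correlations of deviations at the same number ran from -0.225 to 0.314 (HGV against HG) and from -0.23 to 0.39 (LGV against LG). They ran from -0.264 to 0.00522 in HG against LG and from -0.00134 to 0.255 in HGV against LGV. Their means were 0.107, 0.0553, -0.142 and 0.105 in that order. For unlike numbers the means were -0.0629, -0.0284, 0.0741 and -0.0518. With the replicate block the counts of called factors were 6, 4, 0 and 5 in the same order of comparisons, and 0 in the interaction. The libraries that correlated best with their own number were never all of a comparison.

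Values that changed sign had not passed the test. In HG against LG they were HNF4A (0.080 with upper quartile factors, 0.083 with library size, 0.0081 with no filter), HNF4G (0.047 and 0.054) and FOXA2 (0.0023 and 0.0099). With libraries left out the log2 difference in HG against LG ran from -0.0687 to 0.0849 for HNF4A, -0.198 to 0.052 for HNF4G, -0.168 to 0.0203 for FOXA2 and -0.145 to 0.238 for CEBPA. For ONECUT1 it ran from -0.0444 to 0.402 in HGV against LGV, and in the interaction from -0.201 to 0.0121 for FOXA2 and -0.137 to 0.122 for PROX1. Of 640 fold changes recomputed for the 8 factors, 567 kept their direction and side of the threshold, 38 lost a call, 14 gained one and 21 changed sign.

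Library size without TMM factors moved the median of all genes from 0.0247 to 0.146 in HGV against HG and from -0.00569 to 0.156 in LGV against LG, and the split of higher and lower calls from 4184 and 3272 to 5182 and 2424, and from 3461 and 3177 to 4500 and 1958. In HG against LG the split went from 1854 and 1959 to 2171 and 1297, and in HGV against LGV from 3444 and 3160 to 3761 and 2309. The 7 genes of the interaction became 202 with the likelihood ratio test, 161 with the Wald test of DESeq2 and 217 without LG replicate 2. Levels per kb in LG moved from 40.7 to 87.4 for HNF4A, 3.27 to 3.74 for HNF4G, 18.2 to 22.9 for FOXA1, 34.3 to 37.9 for FOXA3 and 1.11 to 1.55 for ONECUT1 with the longest transcript. Counts of CEBPA-AS1, HNF4A-AS1 and PDX1 were low, and no separate cultures, batches or strand setting are given in the sources used here.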
